A study of Mus musculus with 6 samples.

Results

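Collagens are the main structural proteins of the extracellular matrix, and each is assembled from 3 chains that are products of the same or of related genes. The count table held 44 protein-coding genes with the symbol of a collagen chain, among 48709 genes in all. They were found by their symbol in the GENCODE M21 annotation and sorted into 8 classes: 11 fibrillar chains, 6 chains of the basement membrane network (type IV), 3 chains of the basement membrane zone, 6 beaded filament chains (type VI), 9 fibril-associated chains, 3 short-chain network chains, 4 transmembrane chains and 2 other chains.

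The RNA came from ovaries of CD1 mouse embryos at 13.5 dpc (days post coitum). The pregnant females had received by gavage either the diluent, in the control group, or acetaminophen (APAP, 30 mg/kg per day) together with ibuprofen (IBU, 15 mg/kg per day), from 10.5 to 13.5 dpc. Each group had 3 libraries, and each library was made from its own pool of whole embryonic gonads, so that no value belongs to 1 embryo. The titles of the exposed samples name only IBU, whereas their exposure label names both drugs, and the group is called APAP+IBU here.

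In a fetal ovary, fibrillar collagens form the fibres of the stroma between the germ cell cysts, and type IV collagen forms the sheet-like network of the basement membranes that enclose the cysts and the vessels. Type VI collagen forms beaded filaments near cell surfaces. Fibril-associated chains sit on the surface of fibrils and connect them with other matrix proteins. All of these chains share a repeat of 3 residues that begins with glycine, the only residue small enough for the centre of the triple helix.

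This repeat can be read directly in the coding exons. Exons of 3 fibrillar chains and 1 type IV chain are shown because they display the difference between an unbroken and an interrupted repeat. Each is the sense strand of a whole coding exon of the principal transcript on GRCm38, 5′ to 3′, and capitals mark each in-frame glycine codon (GGN). The Col1a1 exon lies on the plus strand at chr11:94939904-94939957 (exon 8), the Col1a2 exon on the plus strand at chr6:4515481-4515534 (exon 8), the Col3a1 exon on the plus strand at chr1:45325360-45325413 (exon 6), and the Col4a1 exon on the minus strand at chr8:11244486-11244569 (exon 9).
Col1a1: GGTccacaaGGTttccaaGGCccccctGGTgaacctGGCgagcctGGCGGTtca
Col1a2: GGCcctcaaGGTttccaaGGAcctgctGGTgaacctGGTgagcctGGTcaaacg
Col3a1: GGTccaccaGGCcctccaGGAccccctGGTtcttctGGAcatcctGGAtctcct
Col4a1: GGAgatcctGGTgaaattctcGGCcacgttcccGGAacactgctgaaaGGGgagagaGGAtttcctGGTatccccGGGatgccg

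The exons of the 3 fibrillar chains had 54 bases each, and a glycine codon opened every triplet. The Col1a1 exon had 7 glycine codons, the last of them outside the triplet spacing, and those of Col1a2 and Col3a1 had 6 each. The Col4a1 exon had 84 bases and 8 glycine codons, with spacings that broke the triplet frame. Over whole coding sequences, the longest unbroken run of triplets that start with GGN had 216 to 344 triplets in the fibrillar chains (median 338), against 39 to 66 in the type IV chains (median 43.5). It had 32 to 113 triplets in the fibril-associated chains and 37 to 87 in the beaded filament chains. The search used the coding strand in its reading frame only. A run of 23 triplets, the shortest among the chains, was reached by 62 of 21540 protein-coding genes (0.288%), and 44 of these were the collagen chains. Fibrillar genes had 21 to 33 coding exons of exactly 54 bases (median 29), type IV genes had 1 to 3, and the short-chain genes had 0.

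**Figure D1:**
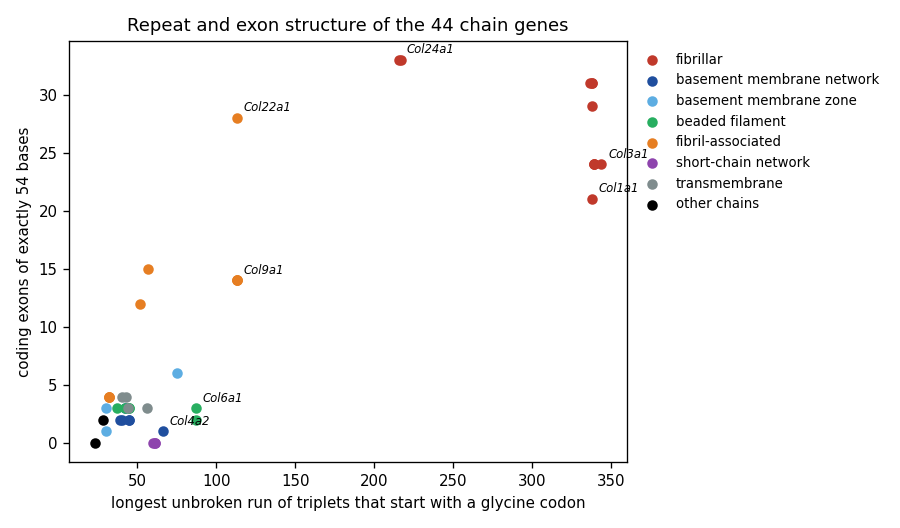
Longest unbroken run of triplets starting with a glycine codon (x axis, triplets) against the number of coding exons of exactly 54 bases (y axis) in the 44 chain genes, 1 point per gene, coloured by class. The fibrillar chains sit apart at 216 triplets and above, with 21 or more such exons.

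Total counts ran from 37811968 to 48954631 per library, and the collagen chains took 0.553% to 0.786% of them. All 9 markers of fetal ovarian somatic cells passed the expression filter, and their summed level was 467 to 573 RPKM in controls and 503 to 572 RPKM in exposed ovaries. Germ cell markers summed to 610 to 639 RPKM in controls and 544 to 761 RPKM in exposed ovaries. The libraries of replicate 3 stood apart by liver markers such as Afp and Alb, which summed to 1082 RPKM in control replicate 3 and 1727 RPKM in APAP+IBU replicate 3, against 98.9 to 313 RPKM in the other libraries, and all 11 liver markers were detected. Results are therefore given for all 6 libraries and for replicates 1 and 2 of each group. Summed spermatid markers, which are foreign to an ovary, were at 57.2 to 224 RPKM in controls and 2.40 to 9.13 RPKM in exposed ovaries, and 8 of 8 were lower in every exposed library. The part of the liver, blood or spermatid RNA in the collagen results was not tested.

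The order of the chains by level showed which collagens these ovaries expressed. RPKM, here the CPM normalised by TMM and divided by the length of the principal transcript in kilobases, was used for levels so that genes of different length could be compared. Col3a1, Col1a2 and Col1a1, the chains of type III and type I collagen, stood first and together made up 45.9% of the summed RPKM of all chains. The next 5 were Col6a2, Col6a1, Col4a1, Col18a1 and Col4a2, and the first 8 chains held 76.8%. In all, 19 chains had a mean over 10 RPKM, 14 lay between 1 and 10 RPKM, and 11 were under 1 RPKM. Among the 43 neighbouring pairs in this order, only Col3a1 and Col1a2 had ranges over the 6 libraries that did not overlap, and 7 pairs kept their order in all 6 libraries, among them Col1a2 above Col1a1, Col18a1 above Col4a2 and Col4a2 above Col26a1. With the length of all annotated exons in place of the principal transcript, 9 of the first 10 chains were shared, but their order changed: Col3a1 and Col1a1 stood first, Col6a1 and Col4a1 came next, Col1a2 was in place 5 and Col26a1 in place 16.

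**Figure D2:**
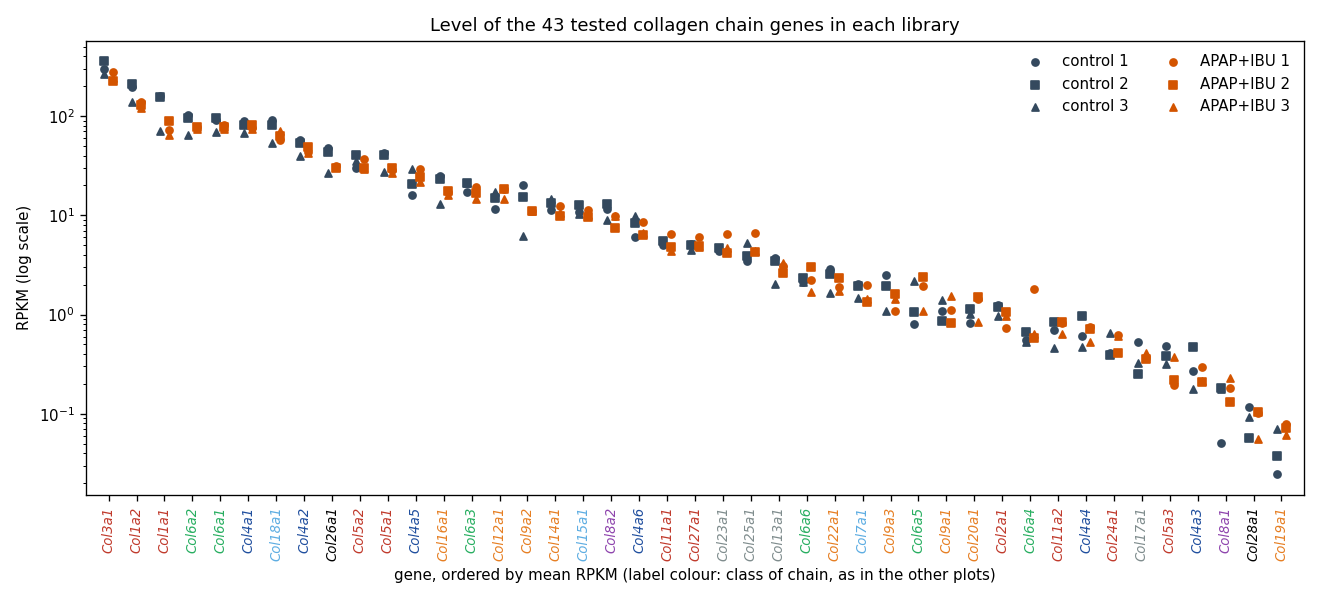
RPKM (log scale) of the 43 tested chain genes in each of the 6 libraries, with control libraries in blue-grey and APAP+IBU libraries in orange, ordered by mean level; gene labels are coloured by class. Levels span from 356 RPKM for Col3a1 in control replicate 2 down to 0.025 RPKM for Col19a1 in control replicate 1.

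The lower part of the order held chains known from other tissues. Col2a1, the fibrillar chain of cartilage, was at 0.73 to 1.24 RPKM, and cartilage markers as a whole summed to 10.3 to 14.1 RPKM in controls and 11.9 to 14.3 RPKM in exposed ovaries. Col4a3 and Col4a4, the chains of the mature glomerular basement membrane, were at 0.178 to 0.473 RPKM and 0.474 to 0.97 RPKM. Col17a1, a transmembrane chain of epithelial attachment sites, was at 0.254 to 0.532 RPKM. Col10a1, the chain of hypertrophic cartilage, had 0, 1 and 0 counts in control replicates 1, 2 and 3 and 0, 4 and 5 counts in APAP+IBU replicates 1, 2 and 3. It was the 1 chain that did not pass the expression filter, and its values were at or near the limit of 3 counts that a count of 0 allows.

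Exposed ovaries were compared with controls by edgeR's quasi-likelihood test over all 20167 genes that passed the filter. With all 6 libraries, 0 of 43 tested chains had an adjusted p under 0.05, where the share over all genes was 0%, and DESeq2 also called 0 chains, against 0.952% of all genes (0.0942% higher and 0.858% lower). Col1a1 and Col1a2, the 2 chains of type I collagen, had an unadjusted p under 0.05, and both were lower in exposed ovaries. Over all genes this share was 6.22%, with 3.21% lower and 3% higher. Of the 43 chains, 28 had a log2 fold change below 0 and 15 above 0, with a median of -0.12, against -0.0047 over all tested genes. No chain had control and exposed libraries that did not overlap, while 10.7% of all tested genes did (4.78% higher and 5.92% lower). In these bulk samples, fewer cells of a type and less RNA per cell cannot be told apart.

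One control library decided much of this. Control replicate 3 was below both other controls in 26 of 43 chains and above both in 10, and in 21 chains it lay within the range of the exposed libraries. Its median log2 difference from the mean of control replicates 1 and 2 was -0.32 over the chains and -0.021 over all tested genes. In 36 chains it lay on the same side of the mean of the other 2 controls as the mean of the exposed libraries. Both sides are measured from the same 2 controls, so a majority was likely in advance and this count decides nothing. No share over all genes was taken for these counts of chains. When control replicate 3 was left out, edgeR called 6 chains at an adjusted p under 0.05 and all 6 were lower (Col1a1, Col1a2, Col5a1, Col26a1, Col9a2 and Col16a1), which is 14% of the chains against 5.16% of all genes called, 2.26% lower and 2.89% higher. The number with an unadjusted p under 0.05 was 2 over all 6 libraries and 17 without this library (14 lower and 3 higher), where the share over all genes was 30.5%, with 15.4% lower and 15.1% higher. This number was 0 without control replicate 1 (3.23% of all genes) and 0 without control replicate 2 (3.35%). It was 1, 2 and 2 without APAP+IBU replicates 1, 2 and 3 (3.11%, 2.8% and 11.4% of all genes).

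With replicates 1 and 2 of each group, 12 of 43 chains had an adjusted p under 0.05 (27.9%), close to the 27.2% of all genes called in that fit. Of these, 9 chains were lower and 3 were higher, where 12.9% of all genes were called lower and 14.2% higher. Control and exposed libraries did not overlap in 25 chains, 18 of them lower and 7 higher, whereas 68.8% of all genes did not overlap with so few libraries (33.3% higher and 35.5% lower). At an unadjusted p under 0.05 the fit counted 18 chains, 13 lower and 5 higher, beside 41% of all genes (20% lower and 20.9% higher). Each library was then corrected for the length of all annotated exons and the GC content of the longest transcript of each gene. After this length and GC correction, 6 chains kept their call (14% against 14.6% of all genes, 8.25% lower and 6.3% higher), of which 4 were lower (Col1a1, Col1a2, Col5a1 and Col6a2) and 2 were higher (Col4a5 and Col6a5). All 6 were among the 12 chains called without the correction. DESeq2 on these 4 libraries called 13 chains, 11 of them shared with edgeR, against 28.1% of all genes (14% higher and 14.1% lower).

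**Figure D3:**
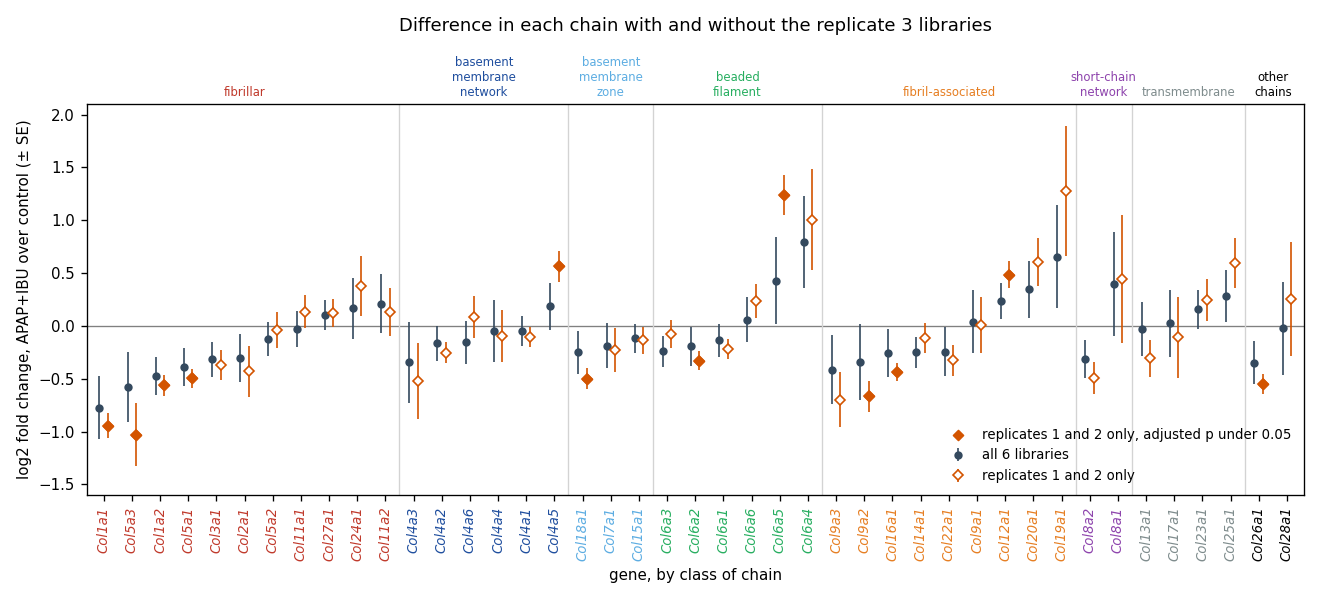
Log2 fold change of APAP+IBU over control (y axis, ± SE) of the 43 tested chains, grouped by class, for all 6 libraries (circles) and for replicates 1 and 2 only (diamonds, filled where the adjusted p was under 0.05). The type I chains Col1a1 and Col1a2 lie below 0 in both fits, and 12 diamonds are filled.

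The fibrillar class held the 3 lowest log2 fold changes of all chains, those of Col1a1, Col5a3 and Col1a2. Its median log2 fold change was -0.30 over all 6 libraries, with 8 of 11 chains below 0, and -0.37 with replicates 1 and 2, where 4 chains were called lower (Col1a1, Col1a2, Col5a1 and Col5a3) and 0 were called higher. In that fit 12.9% of all genes were called lower and 14.2% higher. Col1a1 (ENSMUSG00000001506, chromosome 11, 94936224 to 94953042), the α1 chain of type I collagen, was at 159.6, 154 and 71.4 RPKM in control replicates 1, 2 and 3 and at 72.2, 88.7 and 64.0 RPKM in APAP+IBU replicates 1, 2 and 3. Control replicates 1 and 2 were above every exposed library, and control replicate 3 was among them. On the log2 scale the difference was -0.78 (standard error, SE, 0.30, unadjusted p = 0.0312, adjusted p = 0.692 in edgeR) with all 6 libraries, and with replicates 1 and 2 it was -0.94 (SE 0.12, adjusted p = 0.00623). Leaving out single libraries moved it between -1.07 and -0.59.

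Col1a2 (ENSMUSG00000029661, chromosome 6, 4504814 to 4541544), the α2 chain of the same trimer, was at 195, 209 and 138 RPKM in the controls and at 139, 130.0 and 121 RPKM in exposed ovaries, in replicate order. Again 2 controls stood above every exposed library and control replicate 3 fell within their range. The log2 fold change was -0.47 (SE 0.18, unadjusted p = 0.0302, adjusted p = 0.692 in edgeR) over all 6 libraries, -0.56 (adjusted p = 0.00974) with replicates 1 and 2, and -0.69 (adjusted p = 0.0121) after the length and GC correction of these. Type I collagen is usually made of 2 α1 chains and 1 α2 chain. The ratio of Col1a1 to Col1a2 RPKM was 0.818, 0.739 and 0.518 in controls and 0.518, 0.682 and 0.528 in exposed ovaries, and the groups overlapped. With the length of all annotated exons its mean was 1.33, so that the chain with the higher level depends on the length used.

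Col3a1 (ENSMUSG00000026043), which encodes the single chain of type III collagen, was the most abundant chain in every library. It was at 301, 356 and 263 RPKM in controls and at 277, 223 and 239 RPKM in exposed ovaries, with a log2 fold change of -0.31 (SE 0.17, adjusted p = 0.692) over all 6 libraries and -0.37 (adjusted p = 0.0964) with replicates 1 and 2 in edgeR. DESeq2 on replicates 1 and 2 called it lower (log2 fold change -0.38, adjusted p = 0.0273). The lowest control thus fell within the range of the exposed libraries.

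The type V chains, which join type I chains in mixed fibrils and limit their width, did not all have the same values. Col5a1 was at 42.4, 40.6 and 27.5 RPKM in controls and at 28.3, 29.7 and 26.4 RPKM in exposed ovaries, with log2 fold changes of -0.39 (adjusted p = 0.692) over 6 libraries and -0.50 (adjusted p = 0.00955) with replicates 1 and 2. Its partner Col5a2 was at 29.7, 40.7 and 35.0 RPKM in controls and at 37.3, 30.3 and 29.2 RPKM in exposed ovaries, with log2 fold changes of -0.12 (adjusted p = 0.796) and -0.039 (adjusted p = 0.887). The ratio of Col5a1 to Col5a2 overlapped between the groups. Col5a3, the least abundant type V chain, was at 0.316 to 0.484 RPKM in controls and 0.197 to 0.374 RPKM in exposed ovaries, with log2 fold changes of -0.58 (adjusted p = 0.692) and -1.03 (adjusted p = 0.042), and it was not called after the length and GC correction (adjusted p = 0.114). The other fibrillar chains Col11a1, Col27a1, Col11a2, Col24a1 and Col2a1 ranged from 0.394 to 6.54 RPKM, and none of them was called in either fit.

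The type IV chains of the basement membrane network had a median log2 fold change of -0.10 over all 6 libraries and -0.10 with replicates 1 and 2, with 5 and 4 of 6 chains below 0. Col4a1 (ENSMUSG00000031502), the main chain of nearly all basement membranes, was at 89.4, 82.0 and 67.6 RPKM in controls and at 75.7, 81.3 and 74.1 RPKM in exposed ovaries. Its log2 fold change was -0.048 (SE 0.14, adjusted p = 0.915) over all 6 libraries and -0.11 (adjusted p = 0.442) with replicates 1 and 2. Col4a2, its partner in the trimer, was at 57.9, 53.5 and 39.5 RPKM in controls and at 43.4, 48.8 and 42.6 RPKM in exposed ovaries, with values of -0.16 (adjusted p = 0.756) and -0.25 (adjusted p = 0.0953).

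Col4a5 (ENSMUSG00000031274, chromosome X, 141475385 to 141689234), an X-linked type IV chain, had the opposite sign. It was at 16.1, 20.6 and 29.3 RPKM in controls and at 29.1, 24.2 and 21.7 RPKM in exposed ovaries, so that control replicate 3 was the highest library of all. The log2 fold change was 0.19 (adjusted p = 0.786) over all 6 libraries, 0.56 (SE 0.15, adjusted p = 0.0306) with replicates 1 and 2, and 0.51 (adjusted p = 0.0467) with the length and GC correction. Col4a6, its neighbour, was at 5.99, 8.33 and 9.83 RPKM in controls and at 8.63, 6.36 and 6.69 RPKM in exposed ovaries, and its log2 fold change of -0.16 turned to 0.088 with replicates 1 and 2, with neither value called (adjusted p = 0.799 and 0.77).

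Type IV genes lie head to head in pairs that are read in opposite directions. The annotated starts of Col4a1 and Col4a2 on chromosome 8 overlap by 22 bases, those of Col4a4 and Col4a3 on chromosome 1 are 71 bases apart, and those of Col4a6 and Col4a5 on chromosome X are 1308 bases apart. The ratio of Col4a1 to Col4a2 RPKM lay between 1.53 and 1.74 in the 6 libraries, a narrow range, and the groups overlapped. The ratio of Col4a5 to Col4a6 was 2.68, 2.47 and 2.98 in controls and 3.37, 3.81 and 3.24 in exposed ovaries. These groups did not overlap, control replicate 3 included, and the exact permutation test (2-sided) gave p = 0.1, the smallest p that 3 against 3 libraries allow, or 0.467 when adjusted over the 7 ratios between chains compared, of which 6 were between partners and 1 was Col3a1 to Col1a1. The ratio of Col4a4 to Col4a3 overlapped between groups, and 5.65% of the exon bases of Col4a3 overlap a gene on the opposite strand.

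The chains of the basement membrane zone had 3 of 3 log2 fold changes below 0, with a median of -0.19 over all 6 libraries. Col18a1 (ENSMUSG00000001435), the source of endostatin, was at 90.3, 81.5 and 53.8 RPKM in controls and at 56.8, 62.9 and 69.9 RPKM in exposed ovaries. Its log2 fold change was -0.25 (adjusted p = 0.713) over all 6 libraries, -0.50 (adjusted p = 0.0132) with replicates 1 and 2, and -0.28 (adjusted p = 0.0704) once length and GC content were corrected. Control replicate 3 had the lowest value of all 6 libraries. Col15a1, its close relative, ranged from 9.66 to 12.6 RPKM with a log2 fold change of -0.12 (adjusted p = 0.772). Col7a1, the chain of anchoring fibrils, was at 1.34 to 2.04 RPKM. Markers of endothelium summed to 158 to 162 RPKM in controls and to 125 to 151 RPKM in exposed ovaries, with 6 of 7 below 0, and their part in the basement membrane values was not tested.

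In the beaded filament class, Col6a1, Col6a2 and Col6a3 had log2 fold changes below 0 and the less abundant Col6a4, Col6a5 and Col6a6 had values above 0, with a median of -0.039 over all 6 libraries. Col6a2 was at 101, 96.5 and 64.2 RPKM in controls and at 76.9, 78.3 and 73.9 RPKM in exposed ovaries, with log2 fold changes of -0.19 (adjusted p = 0.744) over all 6 libraries, -0.33 (adjusted p = 0.0324) with replicates 1 and 2 and -0.35 (adjusted p = 0.0352) after the length and GC correction. Col6a1 was at 91.6, 95.7 and 68.7 RPKM in controls and at 81.9, 76.9 and 73.9 RPKM in exposed ovaries, with -0.14 (adjusted p = 0.772) and -0.22 (adjusted p = 0.124). The ratio of Col6a1 to Col6a2, which are used in equal numbers in the protein, stayed between 0.903 and 1.07 and overlapped between groups. With the length of all annotated exons the mean of this ratio was 1.98, so that its level depends on the length used. Col6a3, the longest of these chains, was at 14.7 to 21.4 RPKM and was not called (log2 fold change -0.24, adjusted p = 0.698).

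Col6a5 (ENSMUSG00000091345) and Col6a4, which can take the place of Col6a3 in the trimer, were far less abundant. Col6a5 was at 0.808, 1.05 and 2.18 RPKM in controls and at 1.95, 2.38 and 1.09 RPKM in exposed ovaries, which means that each replicate 3 library was on the side of the other group. With replicates 1 and 2 its log2 fold change was 1.24 (SE 0.19, adjusted p = 0.00698), and 1.02 (adjusted p = 0.0115) after correction, against 0.43 (adjusted p = 0.75) over all 6 libraries. Col6a4 had the highest log2 fold change of all chains over 6 libraries, 0.80 (adjusted p = 0.692), and this came from APAP+IBU replicate 1 at 1.81 RPKM, while the other 5 libraries were at 0.531 to 0.665 RPKM. Without that library its log2 fold change was 0.054.

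Fibril-associated chains were mixed. Col16a1 was at 24.6, 23.1 and 13.0 RPKM in controls and at 17.1, 17.7 and 16.02 RPKM in exposed ovaries, and Col9a2 at 20.4, 15.3 and 6.25 RPKM in controls and at 11.03, 11.2 and 10.95 RPKM in exposed ovaries. In both, control replicate 3 was the lowest of the 6 libraries. Their log2 fold changes in edgeR were -0.26 (adjusted p = 0.729) and -0.34 (adjusted p = 0.764) over all 6 libraries. With replicates 1 and 2 these were -0.43 (adjusted p = 0.0136) and -0.67 (adjusted p = 0.0172). Neither chain was called after the length and GC correction (adjusted p = 0.256 and 0.534). Col12a1, which binds type I fibrils, was at 11.6, 15.0 and 16.97 RPKM in controls and at 18.3, 18.4 and 14.7 RPKM in exposed ovaries. Its log2 fold change was 0.24 (adjusted p = 0.7) over all 6 libraries. It was higher with replicates 1 and 2 (log2 fold change 0.49, adjusted p = 0.0315), but its corrected value was 0.068 (adjusted p = 0.685). Col14a1 ranged from 9.93 to 14.5 RPKM and was not called (log2 fold change -0.25, adjusted p = 0.692 over all 6 libraries). Col19a1 had a high log2 fold change of 0.65 (adjusted p = 0.702) at 0.025 to 0.079 RPKM.

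Among the remaining chains, Col26a1 (ENSMUSG00000004415), known from testis and ovary, was in place 9 by RPKM, and in place 16 when the length of all annotated exons was used. It was at 47.2, 43.3 and 26.8 RPKM in controls and at 31.3, 29.7 and 31.0 RPKM in exposed ovaries, with log2 fold changes of -0.35 (adjusted p = 0.692) over all 6 libraries, -0.55 (adjusted p = 0.00903) with replicates 1 and 2 and -0.37 (adjusted p = 0.0509) after correction. Control replicate 3 was again below every other library. Col8a2, a short-chain network chain, ranged from 7.46 to 13.0 RPKM, with a log2 fold change of -0.32 (adjusted p = 0.692) over all 6 libraries. With replicates 1 and 2, DESeq2 alone called it lower (log2 fold change -0.50, adjusted p = 0.0133), where edgeR gave an adjusted p of 0.0502. The 4 transmembrane chains had a median log2 fold change of 0.089, and none was called.

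The share of each class in the collagen RNA of a library does not depend on how the libraries are scaled. Fibrillar chains made up 53.9%, 56.7% and 53.5% of the summed collagen RPKM in controls and 51.6%, 49.4% and 49.4% in exposed ovaries. All 3 controls, control replicate 3 included, were above all 3 exposed libraries, and the means were 54.7% ± 1.74 (SD, n = 3) and 50.1% ± 1.25 (SD, n = 3). As a share of collagen counts, which no length enters, they were 57.1%, 59.3% and 54.9% in controls and 53.5%, 51.3% and 51.8% in exposed ovaries, again without overlap. Col3a1, Col1a2 and Col1a1 alone made up 45.9% of the summed RPKM of all chains, so the fibrillar share mostly follows these 3 chains. The share of the other fibrillar chains was not taken separately. Beaded filament chains were at 15.2% to 15.6% in controls and 16.7% to 17.1% in exposed ovaries, and fibril-associated chains at 5.10% to 5.49% and 5.79% to 6.12%. By counts the beaded filament shares were 12.6% to 13.3% and 13.7% to 14.2%, but those of the fibril-associated chains overlapped. Type IV chains took 12.4%, 11.6% and 14.4% in controls and 14.3%, 15.5% and 14.6% in exposed ovaries, and here control replicate 3 overlapped. By counts the type IV shares were 14.8%, 13.7% and 16.7% in controls and 16.8%, 18.2% and 17.3% in exposed ovaries, without overlap. With the length of all annotated exons, the fibrillar, beaded filament and fibril-associated shares did not overlap between groups and the type IV shares did. In level, the beaded filament chains summed to 197 RPKM ± 32.7 (SD, n = 3) in controls and 176 RPKM ± 9.17 (SD, n = 3) in exposed ovaries and the fibril-associated chains to 68.2 RPKM ± 10.6 (SD, n = 3) and 62.0 RPKM ± 3.70 (SD, n = 3), so that their shares were higher while their levels were not. These shares describe the libraries and were not tested.

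**Figure D4:**
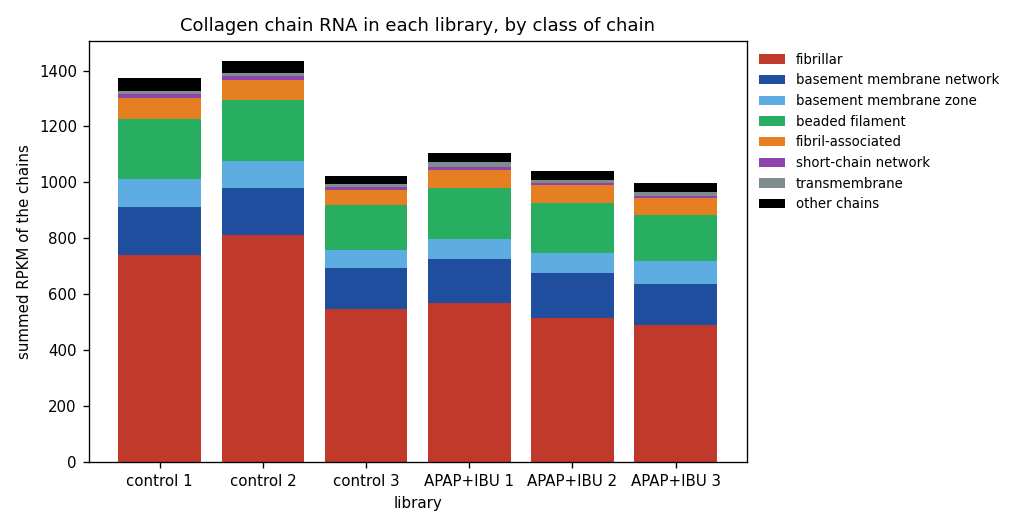
Summed RPKM of the collagen chains in each library (bars from 0), split by class. Fibrillar chains sum to 547 to 814 RPKM in controls and 492 to 569 RPKM in exposed ovaries, and control replicate 3 has a total of 1023 RPKM, among the exposed libraries at 997 to 1103 RPKM.

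Summed over all chains, the level was 1277 RPKM ± 222 (SD, n = 3) in controls and 1047 RPKM ± 53.5 (SD, n = 3) in exposed ovaries, and controls 1, 2 and 3 were at 1374, 1435 and 1023 RPKM. Stromal markers such as Pdgfra and Tcf21 summed to 226, 308 and 253 RPKM in controls and to 292, 231 and 256 RPKM in exposed ovaries, so that they overlapped. Of these 7 markers, 5 had a log2 fold change above 0 over all 6 libraries, 3 with upper quartile scaling, 3 with the length and GC correction and 2 with replicates 1 and 2 and that correction, where 1 was called lower, beside 8.25% of all genes. Mesonephros markers summed to 55.8 to 73.0 RPKM in controls and 54.95 to 64.9 RPKM in exposed ovaries, and smooth muscle and pericyte markers to 78.7 to 109 RPKM and 73.9 to 123 RPKM. Bone markers were at 2.16 to 3.36 RPKM and 2.43 to 3.11 RPKM in sum, skeletal muscle markers at 7.71 to 24.7 RPKM and 7.001 to 20.4 RPKM, and blood markers at 8498 to 22540 RPKM and 3925 to 10850 RPKM.

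GC content moved with these values. The tested chains had a median GC content of 56.2% (46.8% to 64.1%), against 50.5% over 16119 tested protein-coding genes, and a median transcript length of 5658 bases against 2928. Across the 43 chains, the log2 fold change with all 6 libraries had a Pearson correlation of -0.41 with GC content, and across 16127 genes it was -0.21. With replicates 1 and 2 the values were -0.54 and -0.36, and the chains share the same libraries in each case. After the length and GC correction, the correlations across the chains were -0.19 for 6 libraries and -0.23 for replicates 1 and 2. The correction used the GC content of the longest transcript, whereas these correlations use that of the principal transcript. Of the 9 chains over 60% GC, 8 were below 0 with a median of -0.26 over all 6 libraries, beside -0.23 for the 824 genes in the same range, and with replicates 1 and 2 the medians were -0.43 for these chains and -0.54 for 838 genes. The part of GC content in single chains was not tested beyond the corrected fits.

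**Figure D5:**
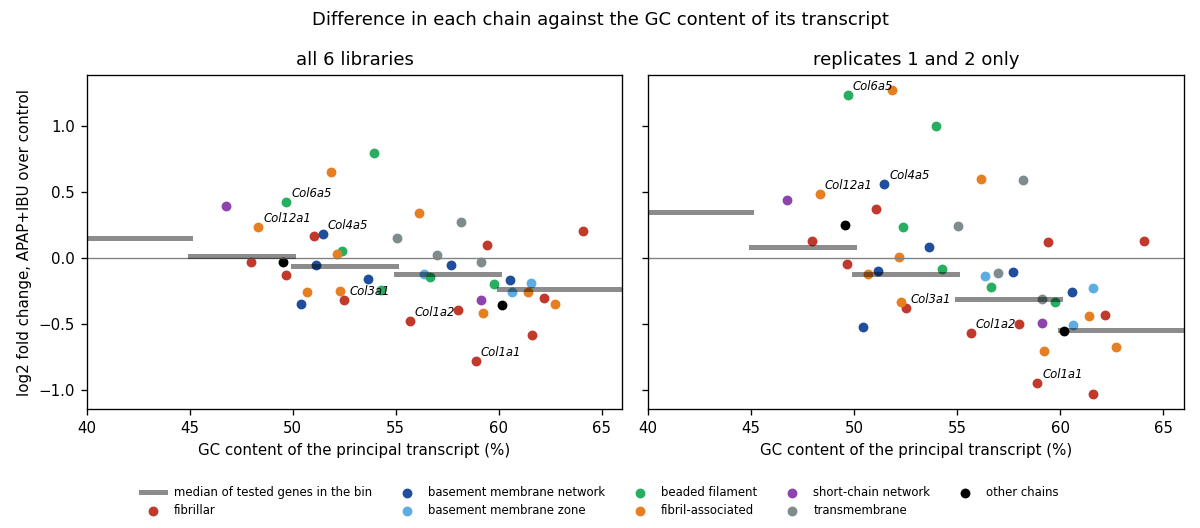
Log2 fold change of APAP+IBU over control (y axis) against GC content of the principal transcript (x axis, %) for the 43 tested chains, coloured by class, with all 6 libraries on the left and replicates 1 and 2 on the right. Grey bars give the median of all tested genes with a principal coding transcript (16127 on the left, 16271 on the right) in each GC range, the outermost drawn to the edge of the axis; Col1a1 lies below the bar of its range in both panels.

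Genes that modify and fold collagen chains in the endoplasmic reticulum were described as a first group of partners. None of the 23 tested was called over all 6 libraries, 19 were below 0, and the median log2 fold change was -0.15. With replicates 1 and 2, 11 were called lower and 0 higher (47.8%, against 12.9% of all genes called lower and 14.2% higher). After the length and GC correction 4 were called lower (P4ha1, P4ha2, Plod1 and Ppib) and 1 higher (P4ha3), beside 8.25% of all genes lower and 6.3% higher. P4ha2, P4ha3, Plod1, P4hb and Fkbp7 are named after their values were seen. P4ha1, a prolyl 4-hydroxylase subunit that stabilises the helix, was at 23.5, 25.9 and 21.3 RPKM in controls and at 19.0, 19.4 and 19.2 RPKM in exposed ovaries, without overlap, with a log2 fold change of -0.30 (SE 0.12, adjusted p = 0.692) over all 6 libraries. P4hb and Fkbp7 were the other 2 genes of the group without overlap, and both were lower.

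Ppib, a prolyl isomerase, was at 497, 466 and 296 RPKM in controls and at 298, 290.5 and 371 RPKM in exposed ovaries, with log2 fold changes of -0.39 (adjusted p = 0.692) over 6 libraries and -0.69 (adjusted p = 0.00632) with replicates 1 and 2. Serpinh1, the collagen chaperone HSP47, was at 399, 367 and 208 RPKM in controls and at 267, 271 and 297 RPKM in exposed ovaries, with -0.22 (adjusted p = 0.764) and -0.49 (adjusted p = 0.0125), and its corrected value was -0.092 (adjusted p = 0.547). Crtap, part of the prolyl 3-hydroxylase complex, likewise went from -0.53 (adjusted p = 0.0085) with replicates 1 and 2 to -0.018 (adjusted p = 0.923) after correction.

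Of 14 tested genes for propeptide cleavage and crosslinking, 0 were called over all 6 libraries and 9 were below 0. Pcolce, which enhances cleavage of fibrillar procollagens, was at 104.5, 103 and 58.6 RPKM in controls and at 65.97, 65.8 and 77.3 RPKM in exposed ovaries, and it was lower with replicates 1 and 2 (log2 fold change -0.63, adjusted p = 0.00632) and after correction (-0.44, adjusted p = 0.0147). Loxl1, a lysyl oxidase noted after its values were seen, was the other gene called lower, and Adamts3, a procollagen N-proteinase, was called higher (0.90, adjusted p = 0.042) but not after correction (0.89, adjusted p = 0.0524). Of all genes, 12.9% were called lower and 14.2% higher with replicates 1 and 2, and 8.25% and 6.3% after correction. Pxdn, which crosslinks type IV collagen, was at 53.1 to 60.9 RPKM with a log2 fold change of 0.0021 (adjusted p = 0.996) over all 6 libraries. Tll1 was at 0.151 to 0.353 RPKM and was not called.

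The collagen receptors had 0 of 11 genes called over all 6 libraries. Itgb1, the β1 integrin subunit, was at 109 to 137 RPKM with a log2 fold change of -0.12 (adjusted p = 0.76), and Itga11, an α subunit for fibrillar collagen, did not overlap between groups, at 1.46 to 1.64 RPKM in controls and 1.67 to 1.94 RPKM in exposed ovaries. With replicates 1 and 2, Itga2 was called higher and Ddr1 lower, both named after their values were seen, and neither was called after correction. The shares called over all genes were 12.9% lower and 14.2% higher with replicates 1 and 2, and 8.25% and 6.3% after correction. Among 12 tested genes for breakdown and its inhibitors, none was called over 6 libraries, and Mmp9, Fap and Timp2 (the last named after its values were seen) were lower without overlap. Fap was at 4.75, 5.26 and 5.77 RPKM in controls and at 4.70, 3.37 and 3.79 RPKM in exposed ovaries. Mmp2, a gelatinase, and Mmp14, which activates it, were at 71.6 to 107 RPKM and 57.5 to 77.7 RPKM and were not called in either fit. Timp1 was the 1 gene of this group called with replicates 1 and 2, where it was lower (-0.38, adjusted p = 0.0429), and Fap was the 1 gene called after correction (-0.80, adjusted p = 0.0244), beside the same shares over all genes.

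Partners of the fibrils and of basement membranes had 0 of 16 and 0 of 19 genes called over all 6 libraries. Fmod, a small proteoglycan that binds type I fibrils, was at 10.3, 11.5 and 7.75 RPKM in controls and at 6.52, 7.52 and 5.52 RPKM in exposed ovaries, without overlap, with a log2 fold change of -0.59 (SE 0.19, unadjusted p = 0.0157, adjusted p = 0.692) over 6 libraries and -0.61 (adjusted p = 0.0144) with replicates 1 and 2. Tnc, a matrix glycoprotein, was at 4.12, 4.88 and 4.89 RPKM in controls and at 3.34, 3.68 and 2.96 RPKM in exposed ovaries, also without overlap (log2 fold change -0.48, adjusted p = 0.692). Sparc, a collagen-binding protein, was at 351 to 517 RPKM in controls and 360 to 379 RPKM in exposed ovaries and was lower with replicates 1 and 2 (-0.42, adjusted p = 0.0203). Thbs2, named after its values were seen, was the 1 gene of the group called higher in that fit (0.42, adjusted p = 0.0208), and Postn, likewise, the 1 gene called after correction (-0.98, adjusted p = 0.0188). Beside these stand 12.9% of all genes lower and 14.2% higher with replicates 1 and 2, and 8.25% and 6.3% after correction. Dcn, a stromal proteoglycan, had a log2 fold change of 0.053 (adjusted p = 0.938).

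Among the basement membrane partners, Nid2 was lower without overlap at 38.3 to 42.3 RPKM in controls and 32.9 to 36.6 RPKM in exposed ovaries (log2 fold change -0.22, adjusted p = 0.692), and Agrn was higher without overlap at 44.5 to 45.5 RPKM and 46.9 to 50.4 RPKM (log2 fold change 0.10, adjusted p = 0.767). Lamb1, the laminin β1 chain, was at 53.9 to 63.3 RPKM and was not called. Lamc3, a laminin γ chain, was at 2.04, 2.29 and 1.30 RPKM in controls and at 1.16, 1.21 and 1.36 RPKM in exposed ovaries, with log2 fold changes of -0.60 (unadjusted p = 0.0376, adjusted p = 0.692) over 6 libraries, -0.85 (adjusted p = 0.0132) with replicates 1 and 2 and -0.67 (adjusted p = 0.0406) after correction. With replicates 1 and 2, Tinagl1 was also called lower and Nid1 and Lama3 were called higher, all named after their values were seen. Shares over all genes were 12.9% lower and 14.2% higher in that fit, and 8.25% and 6.3% after correction. Over all 6 libraries, counts of partners without overlap were 3 of 23, 0 of 14, 1 of 11, 3 of 12, 2 of 16 and 2 of 19 in the 6 groups, beside 10.7% of all genes.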

How the data were processed

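Polyadenylated RNA of 3 control and 3 APAP+IBU pools of 13.5 dpc ovaries was measured in stranded libraries. Reads were mapped by the authors to mm10 with TopHat2 2.0.14 and Bowtie2 2.1.0, counted per Ensembl gene with HTSeq 0.6.1 and deposited as raw counts for 48709 genes. The strand setting of the counting is not given in the sources used here. Groups came from the labels, and 0 columns of other samples were present.

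Names, transcripts and GC content came from GENCODE M21 (GRCm38, the assembly of mm10), and 360 genes had no annotation there. edgeR 4.0.16 (R 4.3.3, limma 3.58.1) was run with TMM normalisation, its expression filter, the quasi-likelihood test and Benjamini-Hochberg adjustment on all 20167 genes that passed. Alternatives were DESeq2 1.42.0, other scalings, no filter, the replicate number as a block, a loess correction for length and GC content (span 0.3), replicates 1 and 2 only (20633 genes tested), and leaving out each library. The correction used the length of all annotated exons and the GC content of the longest transcript. Levels and GC values elsewhere used the principal transcript unless stated. DESeq2 on replicates 1 and 2 and the length of all exons were chosen after seeing the data. The tests were tried on simulated data with the same dispersion for all genes, where libraries of a group differed only in depth and random counts. That trial cannot show how the tests perform with the spread between these libraries. Intervals from the fits rest on the spread between pools.

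The chains and lists were chosen with earlier results of these data known. A log2 fold change and adjusted p over all 6 libraries were given for chosen chains. Those were the 20 highest by mean RPKM, the 3 with the highest and the 3 with the lowest log2 fold change, and any called over 6 libraries. Partner genes were taken from the 2 highest by RPKM and the 2 with the smallest p in each list. Further partners were named after their values were seen, and not all partners have a fold change over 6 libraries.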

Additional observations from a re-analysis of the deposited data

How the results depend on the processing

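The number of genes called by edgeR at an adjusted p under 0.05 over all 6 libraries was 0. It was 120 with no filter on low counts, 192 in DESeq2, 2 with the replicate block, 28 with the block and the length and GC correction, 5607 with replicates 1 and 2, 3003 with their length and GC correction, 5801 in DESeq2 on these, and 0 to 1064 when single libraries were left out, the highest without control replicate 3. The number of collagen chains called was 0 over all 6 libraries, 12 with replicates 1 and 2, 6 with their correction, 13 in DESeq2 on these and 0 to 6 when single libraries were left out. Chains with an unadjusted p under 0.05 numbered 2 (6.22% of all genes), and 1 with the replicate block (3.38%), 6 with the length and GC correction (9.32%), 18 with replicates 1 and 2 (41%), 12 with their correction (31.3%) and 0 to 17 without single libraries (2.8% to 30.5%). Chains without overlap numbered 0 (10.7% of all genes), and 1 with upper quartile scaling, 25 with replicates 1 and 2 (68.8%) and 0 to 23 without single libraries, the highest without control replicate 3. Groups of fewer libraries overlap less often, and no share over all genes was taken with upper quartile scaling or without single libraries. Fits that leave the CPM values as they are give no other value. The cause of these moves was not tested.

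The median log2 fold change ranged without single libraries from -0.19 to -0.074 over all chains, from -0.40 to -0.19 over the fibrillar chains and from -0.20 to 0.040 over the type IV network chains. The direction turned for Col6a1 with replicates 1 and 2 and their correction (0.00016), for Col9a2 with the block and the correction (0.0015) and for Col4a6 with replicates 1 and 2 (0.088) and their correction (0.038). Without single libraries it turned for Col4a1 (-0.15 to 0.042, above 0 without control replicate 1), Col9a2 (-0.69 to 0.033, likewise) and Col4a6 (-0.33 to 0.014, above 0 without control replicate 3). Of the other values of single named chains, 194 kept their side and direction and 18 became called under settings with all libraries or with replicates 1 and 2, and 135 and 6 did so when single libraries were left out.

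The labels do not say what a shared replicate number marks. The paper describes independent experiments, each with females of both conditions and its own pools. It does not say whether libraries of the same number came from the same experiment. Same-numbered control and exposed libraries had correlations of -0.059, -0.014 and -0.043 between their deviations from the group means over the tested genes, and the numbers were not used as pairs, although liver markers were in the same order by number in both groups. With 3 libraries per group an exact permutation test cannot go below 0.1. Col10a1, with 0 to 5 counts per library, is at the limit of depth.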
